A study of Mus musculus with 12 samples.

Results

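The 16 genes described here take part in the thiol and enzyme defenses of a cell against reactive oxygen. They were chosen by name from the 748 endogenous genes of the nCounter Metabolic Pathways mouse panel, as the superoxide dismutases, catalase, the glutathione, peroxiredoxin and thioredoxin families, and the NRF2 pathway with Hmox1 and Nqo1. The rule also covered the names of glutathione S-transferase (Gst), gamma-glutamyltransferase (Ggt), sulfiredoxin (Srxn), glutathione synthetase (Gss) and glutathione reductase (Gsr). The panel held no endogenous gene of these names. RNA was measured in T cells pulled with CD90.2 beads from subcutaneous tumors of KPC.Luc, a mouse pancreatic ductal adenocarcinoma line, in female C57BL/6 mice. All 12 mice carried these tumors and received a peptide and an antibody, in 4 groups of 3 mice. Scram+IgG mice received scrambled peptide and isotype IgG, ANT008+IgG mice received ANT008, a peptide antagonist of the receptors of vasoactive intestinal peptide (VIP), and isotype IgG, Scram+aPD-1 mice received scrambled peptide and anti-PD-1, and ANT008+aPD-1 mice received both agents. The peptide dose was 10 µg daily and the antibody dose 200 µg every 3 days, begun 6 to 7 days after implantation and given for 10 days. By the study's methods, mice entered experiments when 8 to 10 weeks old. The isolated cells were 80 to 85% T cells by the labels, so each value includes RNA of other cells, and fewer cells of a type cannot be told apart from less RNA per cell.

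Superoxide dismutases turn superoxide into hydrogen peroxide, and catalase, glutathione peroxidases and peroxiredoxins then remove the peroxide. Glutathione and thioredoxin supply the reducing power for these steps and are themselves recharged with NADPH, in part by thioredoxin reductase. The transcription factor NRF2, the product of Nfe2l2, raises many of these genes under oxidative stress, and KEAP1 holds it in check by targeting it for degradation. Activated T cells produce reactive oxygen as a signal and depend on glutathione and thioredoxin to grow, and macrophages are a known site of heme oxygenase-1 (Hmox1) expression.

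The study used this assay to examine T cell activation under the treatments. It reported higher levels of T cell activation and co-stimulation genes with the combination at an FDR (false discovery rate) below 0.1. The comparison here asked whether either agent, or the pair, changed the RNA levels of the antioxidant genes. No antioxidant gene passed an FDR below 0.1 by edgeR's quasi-likelihood test in any of the 6 contrasts between the 4 groups. The share of all 640 tested genes passing was 0% as well, unlike in the study, and it depended on the test and on single mice. Hmox1 was the member with the largest difference in the fit, higher with Scram+aPD-1 than with Scram+IgG by 1.62 on the log2 scale, and the only one with an unadjusted p under 0.05 in any contrast. Of all tested genes, 1.09% had such a p in that contrast, and 0.469% to 12.8% over the 6 contrasts. Txn1, the cytosolic thioredoxin, held within 1.5-fold over all 12 mice. The levels of Hmox1 also tended to vary with those of Cd14 and Cd68, which mark monocytes and macrophages. Pearson's r was 0.75 (permutation p 0.0643 after Benjamini-Hochberg adjustment) and fell to 0.46 without the 2 mice farthest from the median marker level.

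Lanes differed in depth. The endogenous total ran from 5776 to 1486646 counts, and the lowest were ANT008+aPD-1 mouse 1 with 5776 and ANT008+aPD-1 mouse 3 with 24813. The 16 genes took 3.00 to 3.86% of the endogenous counts of a lane. Values below are scaled counts, that is, counts divided by the size of the lane, set by the 3 housekeeping genes that exceeded background in each of the 12 (Dnajc14, Oaz1 and Ubb), as their geometric mean relative to the average lane. A count equal to background, the mean plus 2 SD of the 8 negative control probes, came to a scaled count of 358 in ANT008+aPD-1 mouse 1 and 149 in mouse 3, against 3.42 to 46.3 in the other lanes. Above background were 6 of the 16 genes in ANT008+aPD-1 mouse 1, 12 in mouse 3 and 14 to 16 in each other lane. Of the 16, 15 were above background in at least 3 lanes and were tested, and 6 (Gpx1, Hmox1, Nfe2l2, Prdx5, Txn1 and Txnrd1) were above background in all 12 lanes. Each of the 15 was above background in 8 to 12 lanes, so none passed through 1 group alone. The word FLAG, with no reason, stands over mouse 1 of Scram+IgG and over mouse 1 of ANT008+IgG in the file.

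The 8 T cell genes of the marker list that the panel held were above background in 11 lanes, and 5 of 8 were in ANT008+aPD-1 mouse 1. Their summed scaled count was 4373, 681 and 656 in the Scram+IgG mice, 1150 to 2919 with ANT008+IgG, 1433 to 2616 with Scram+aPD-1 and 2884 to 3718 with both agents. The 6 myeloid genes (Cd14, Itgam, Cd68, Cybb, Csf3r and Cd163) summed to 1982, 427 and 722 with Scram+IgG, 734 to 1947 with ANT008+IgG, 1039 to 2457 with Scram+aPD-1 and 2049 to 2635 with the combination, where 2 of the 6 were above background in mouse 1. Of the 2 fibroblast genes, Col6a3 was at 249, 807 and 872 in Scram+IgG and at 288, 290 and 72.2 in ANT008+aPD-1. The values 288 and 72.2 stand for 8 and 6 counts in ANT008+aPD-1 mice 1 and 3, which did not pass background. Pdgfrb was above background in 6 lanes, at 8.57 to 13.3 in Scram+IgG and 108, 3.16 and 48.1 in ANT008+aPD-1, where these counts did not pass background. The 2 natural killer cell genes, Ncr1 and Klrd1, ran from 123 to 1081 over all lanes. Scram+IgG mice 2 and 3 had the lowest summed T cell levels and the highest Col6a3 levels of the 12.

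**Figure D1:**
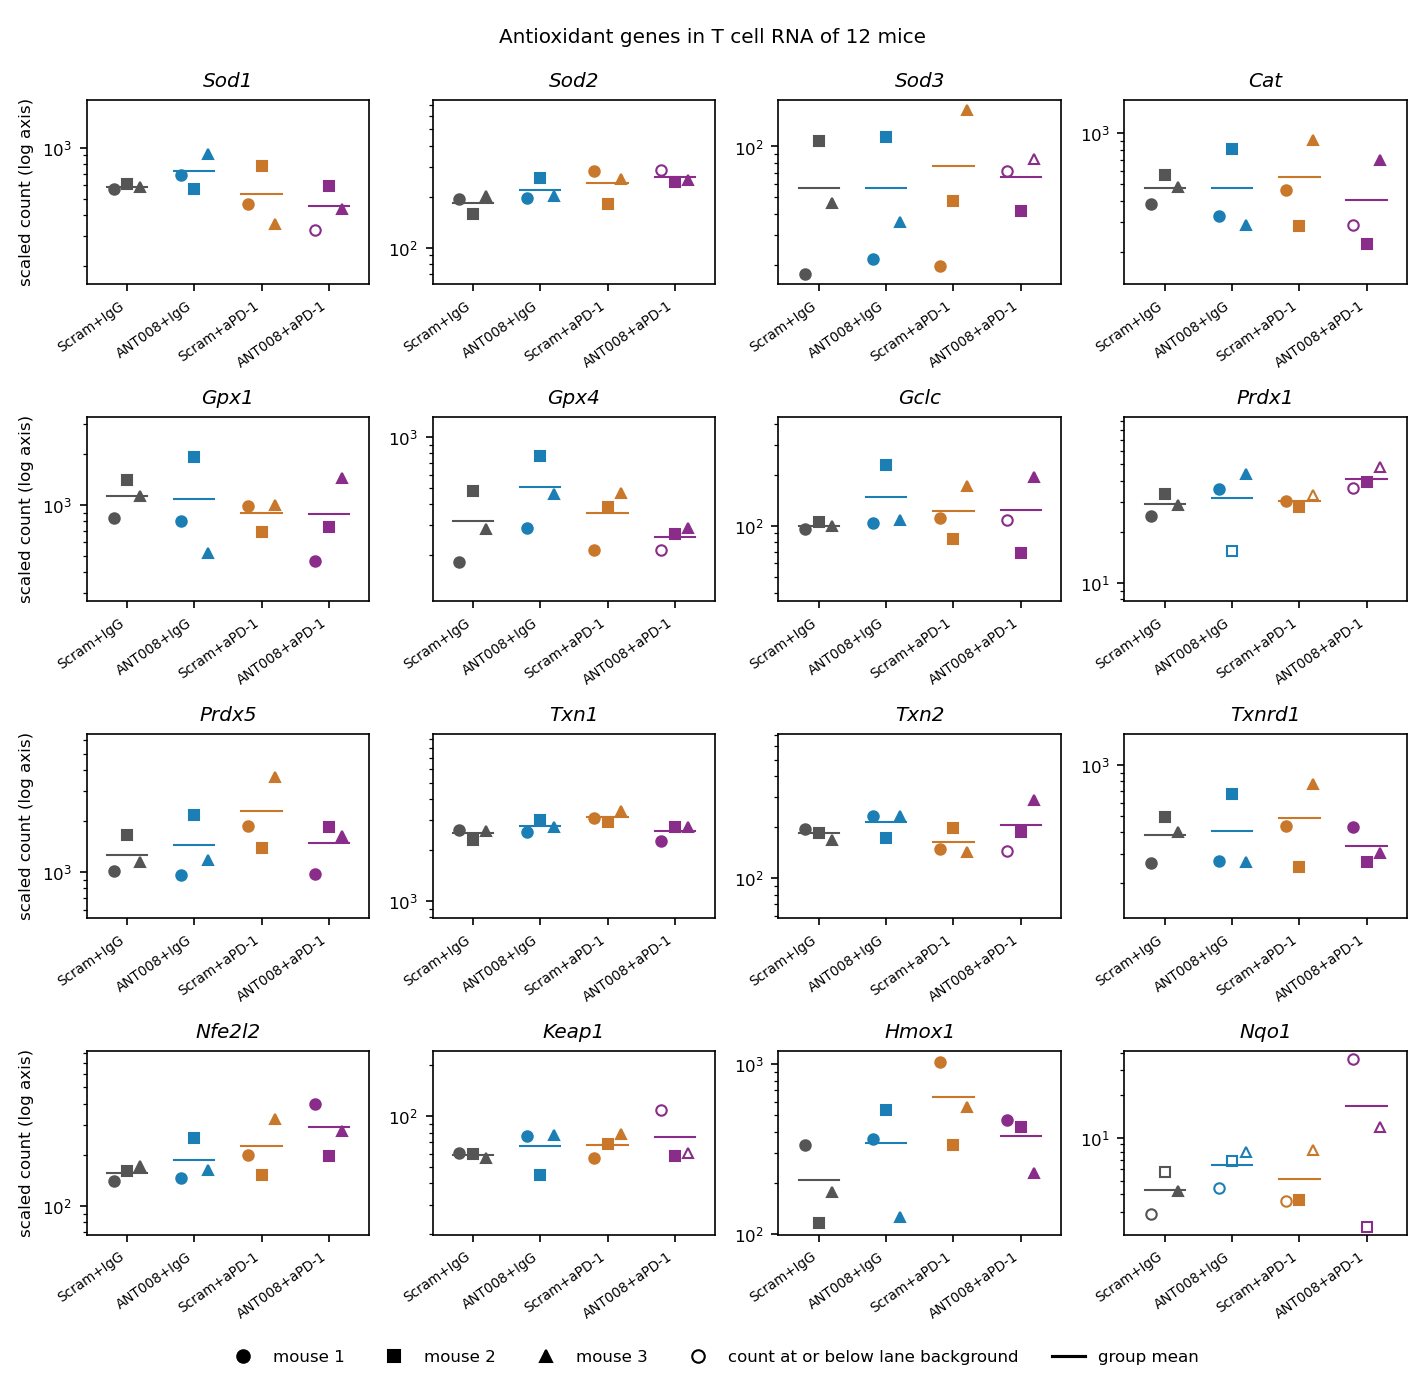
Scaled count (log axis) of each of the 16 antioxidant genes in each of the 12 mice, by treatment group, with a line at the group mean. Open symbols are counts at or below the background of the lane and lie mostly in ANT008+aPD-1 mice 1 and 3. Txn1 stays between 2271 and 3406 in every mouse, while Hmox1 spans 115 to 1024.

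Thioredoxin 1, encoded by Txn1, is a small protein whose pair of active-site cysteines reduces disulfides of peroxiredoxins and of ribonucleotide reductase. The panel's probes read 100 bases of transcript NM_011660.3, from base 280 to 379, on chromosome 4. Of the 16 targets, those of Txn1 and Prdx5 are shown because they cover the catalytic cysteines themselves and that of Hmox1 because it carries the largest difference. The capitals mark the codons of the redox-active Cys-Gly-Pro-Cys in Txn1 and the codon of the peroxidatic cysteine in Prdx5, and the Hmox1 target is in lower case throughout.
Txn1: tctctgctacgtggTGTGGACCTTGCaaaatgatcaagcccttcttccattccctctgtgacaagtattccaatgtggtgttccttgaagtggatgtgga
Prdx5: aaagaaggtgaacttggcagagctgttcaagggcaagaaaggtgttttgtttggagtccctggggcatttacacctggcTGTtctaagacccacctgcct
Hmox1: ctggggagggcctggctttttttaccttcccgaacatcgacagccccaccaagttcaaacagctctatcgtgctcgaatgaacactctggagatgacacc

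The scaled count of Txn1 was 2624, 2308 and 2609 in Scram+IgG mice 1 to 3. Those treated with ANT008+IgG had 2554, 3024 and 2738. The Scram+aPD-1 mice had 3110, 2923 and 3406, and the combined treatment gave 2271, 2745 and 2719. All 3 Scram+aPD-1 mice lay above all 3 Scram+IgG mice. The means were 3146 ± 244 against 2514 ± 178 (SD, n = 3), a log2 fold change of 0.32 (95% interval -0.33 to 0.97, edgeR FDR 0.988). The exact two-sided permutation test of the means gave p = 0.1, the smallest value that 3 mice against 3 allow. Txn1 was the only member higher without overlap in that comparison, where 2.97% of all tested genes were, and 1.09% were lower without overlap. The lowest-depth lane still held 63 Txn1 counts against a background of 9.94.

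Txn1 differed little between mice. The SD of its log2 scaled count between mice of the same group was 0.12, the second lowest (rank 2) of the 142 genes above background in all lanes, whose median SD was 0.69. The rank depended on the scaling and was 3 with all housekeeping genes, 15 with TMM, 19 with the total endogenous count and 88 with the positive control probes. With the housekeeping scaling, Sod2 had 0.23, Txn2 0.31 and Keap1 0.35, and Sod3 had the highest SD of the 15 tested members, 1.18.

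**Figure D2:**
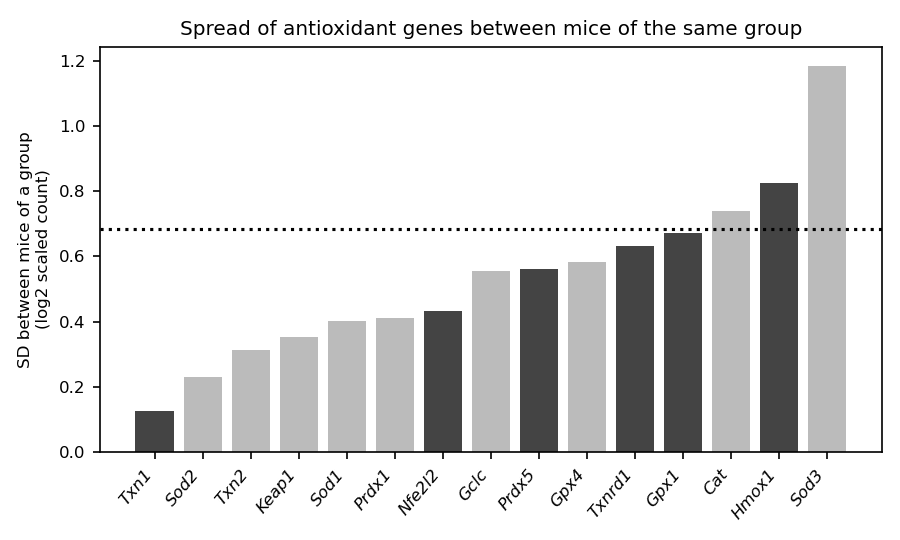
Standard deviation of the log2 scaled count between mice of the same group for the 15 tested antioxidant genes, in increasing order, with the median of the 142 genes above background in all lanes as a dotted line (0.69). Dark bars are members above background in all 12 lanes. Txn1 is the lowest at 0.12 and Sod3 the highest at 1.18.

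Thioredoxin reductase 1 (Txnrd1), which recharges thioredoxin with NADPH, varied more than Txn1. Its scaled counts were 263, 496 and 403 with Scram+IgG, 270, 676 and 269 with ANT008+IgG. They were 435, 249 and 770 in the Scram+aPD-1 mice and 433, 266 and 301 with the combination. The 4 groups overlapped, and its log2 fold changes against Scram+IgG ran from -0.26 to 0.32. Txn2, the mitochondrial thioredoxin, lay between 143 and 289 in all mice, with log2 fold changes of 0.22 with ANT008+IgG, -0.17 with Scram+aPD-1 and 0.20 with both agents. In ANT008+aPD-1 mouse 1 Txn2 had 4 counts, below background.

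Prdx5, a peroxiredoxin of mitochondria, peroxisomes and cytosol, had scaled counts of 1010, 1643 and 1145 with Scram+IgG and 959, 2184 and 1182 with ANT008+IgG. It had 1878, 1385 and 3656 with Scram+aPD-1 and 973, 1849 and 1636 with the combination. The Scram+aPD-1 mean was the highest, 2306 ± 1195 against 1266 ± 333 (SD, n = 3) with Scram+IgG, but 1 mouse of that group lay below Scram+IgG mouse 2. The log2 fold change was 0.86 (95% interval -0.16 to 1.89), with an unadjusted p of 0.0921 and an FDR of 0.988 by edgeR. Prdx1, the cytosolic peroxiredoxin, had scaled counts of 15.5 to 48.1 and was above background in 8 lanes. In the deepest lane, Scram+IgG mouse 3, it had 184 counts against a background of 24.3. In the shallowest, ANT008+aPD-1 mouse 1, it had 1 count against 9.94.

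Among the genes that remove peroxide with glutathione or without a cofactor thiol, Gpx1, the most widespread glutathione peroxidase, had scaled counts of 837, 1410 and 1126 with Scram+IgG and 805, 1914 and 521 with ANT008+IgG. It had 982, 688 and 1004 with Scram+aPD-1 and 469, 740 and 1432 with the combination. The groups overlapped and the log2 fold changes were -0.06, -0.34 and -0.34 in that order. Gpx4, which reduces lipid hydroperoxides and guards against ferroptosis, was at 184 to 483 with Scram+IgG, 289 to 769 with ANT008+IgG, 216 to 467 with Scram+aPD-1 and 216 to 289 with both agents. Its log2 fold change between ANT008+aPD-1 and ANT008+IgG was -0.95 (SE 0.48, unadjusted p 0.0735, edgeR FDR 0.578), and its count in ANT008+aPD-1 mouse 1 was below background. Cat, encoding catalase, ran from 223 to 910 over the 12 mice and its log2 fold changes against Scram+IgG from -0.25 to 0.20. Gclc, the catalytic subunit of the rate-limiting enzyme of glutathione synthesis, was at 95.4, 105 and 99.6 in Scram+IgG and from 68.6 to 229 in the other mice. Its log2 fold changes were 0.55 with ANT008+IgG, 0.26 with Scram+aPD-1 and 0.22 with both agents, with 95% intervals that spanned 0. In ANT008+aPD-1 mouse 1 Cat had 8 counts and Gclc 3, both below background.

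The superoxide dismutases differed from each other in their spread. Sod1, the cytosolic copper-zinc enzyme, was at 568, 610 and 587 in Scram+IgG and at 324 to 922 in the other mice, with log2 fold changes of 0.31, -0.14 and -0.35 for ANT008+IgG, for Scram+aPD-1 and for both agents. The 324 stands for 9 counts in ANT008+aPD-1 mouse 1, below background. Sod2, the mitochondrial manganese enzyme, was at 195, 158 and 202 in Scram+IgG, 197 to 258 with ANT008+IgG, 182 to 285 with Scram+aPD-1 and 288, 245 and 253 with the combination. Its log2 fold changes against Scram+IgG were 0.24, 0.38 and 0.48 in the same order, with an edgeR FDR of 0.473 or higher in each. Sod3, the extracellular enzyme, ran from 17.7 to 164, a 9.25-fold range, and the spread lay within groups, with 17.7, 108 and 46.5 in the 3 Scram+IgG mice. Its intervals were accordingly the widest of the 15, from -2.03 to 2.19 for ANT008+aPD-1 against Scram+IgG. The Sod3 counts of ANT008+aPD-1 mice 1 and 3 were 2 and 7, below background.

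Nfe2l2 encodes NRF2, and its scaled counts were 140, 160 and 171 in Scram+IgG and 147, 253 and 162 in ANT008+IgG. They were 200, 153 and 324 in Scram+aPD-1 and 396, 198 and 277 in ANT008+aPD-1. All 3 mice of the ANT008+aPD-1 group lay above all 3 Scram+IgG mice, with means of 290 ± 99.9 and 157 ± 15.99 (SD, n = 3). The log2 fold change was 0.81 (SE 0.39, 95% interval -0.05 to 1.66), with an unadjusted p of 0.0615 and an FDR of 0.411 by edgeR, and the exact two-sided permutation test gave p = 0.1, the smallest possible. The highest value came from ANT008+aPD-1 mouse 1, where it stands for 11 counts against a background of 9.94. Without that mouse the difference relative to the median of all tested genes was 0.51 (unadjusted p 0.178), and without ANT008+aPD-1 mouse 2 it was 0.70 (unadjusted p 0.0308), against 0.69 with all mice.

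Without overlap, 3 members were higher in ANT008+aPD-1 than in Scram+IgG, namely Nfe2l2, Prdx1 and Sod2, and 0 were lower. Of all tested genes, 7.81% were higher and 5.78% lower without overlap in that comparison. The counts of Prdx1 in ANT008+aPD-1 mice 1 and 3 and of Sod2 in mouse 1 were below background, where scaling lifts the background with the count. In ANT008+IgG against Scram+IgG no member was separated either way, beside 2.97% of all tested genes higher and 0.469% lower. Keap1, the inhibitor of NRF2, was at 60.3, 60.0 and 56.5 in Scram+IgG and from 44.7 to 108 in the other mice. Its log2 fold changes were 0.18, 0.18 and 0.19. In ANT008+aPD-1 mice 1 and 3 it had 3 and 5 counts, below background, and the 108 stands for those 3 counts. Nqo1, a quinone reductase often used as a readout of NRF2, was above background in 2 lanes, 1 of Scram+IgG and 1 of Scram+aPD-1, and was not tested.

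The antioxidant response element, the sequence that NRF2 binds, has the core TGACNNNGC, and it was searched on both strands in the window from 250 bases before to 50 after each gene's start (RefSeq, GRCm38.p6). Promoters were found for 13 of the 16 members. Gclc, Hmox1 and Sod3 had none in the source and were not searched. Of the 13, 4 held the core, among them Nfe2l2 and Prdx1, and Nqo1 did not. Of all 27025 genes with a promoter in the table, 13.99% held it in at least 1 promoter. The matches are printed with the core, on either strand, in capitals and each on the strand of its gene, from chr2:75704879-75704913 (minus strand) for Nfe2l2, chr4:116685450-116685490 for Prdx1, chr10:82859098-82859138 for Txnrd1, in 1 of its 3 promoters, and chr16:90220690-90220730 for Sod1. The match describes letters in the window and not binding.
Nfe2l2: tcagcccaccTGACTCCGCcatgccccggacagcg
Prdx1: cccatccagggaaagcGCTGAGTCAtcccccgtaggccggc
Txnrd1: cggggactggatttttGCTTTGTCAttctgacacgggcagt
Sod1: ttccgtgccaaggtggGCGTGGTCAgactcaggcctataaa

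Hmox1 encodes heme oxygenase-1, which splits heme into biliverdin, carbon monoxide and iron and is induced by NRF2, by heme and by inflammatory signals. Its scaled counts were 332, 115 and 176 in Scram+IgG and 364, 539 and 126 in ANT008+IgG. They were 1024, 331 and 562 in Scram+aPD-1 and 469, 427 and 229 in ANT008+aPD-1. The Scram+aPD-1 group was highest, with a mean of 639 ± 353 against 208 ± 112 (SD, n = 3) in Scram+IgG, and the groups overlapped only by the values 331 and 332. The log2 fold change was 1.62 (SE 0.60, 95% interval 0.32 to 2.92), which is 3.07-fold. The unadjusted p was 0.0190 and the FDR 0.988 by edgeR, so the difference did not pass the threshold. Of the 15 members, 1 had an unadjusted p under 0.05 in this comparison, beside 1.09% of all tested genes.

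The size of that difference depended on single mice. Relative to the median of all tested genes the Hmox1 difference was 1.46 with all mice. It was 0.93 without Scram+aPD-1 mouse 1 (unadjusted p 0.104), 1.17 without Scram+IgG mouse 2 (unadjusted p 0.0701) and 1.38 without Scram+IgG mouse 3 (unadjusted p 0.0595). It was 2.00 without Scram+IgG mouse 1 (unadjusted p 0.00781, FDR 0.287), 1.69 without Scram+aPD-1 mouse 2 (unadjusted p 0.00970) and 1.77 without Scram+aPD-1 mouse 3 (unadjusted p 0.0256). Without both lanes marked FLAG it was 2.00 (unadjusted p 0.00991, FDR 0.207). With ANT008+IgG the log2 fold change of Hmox1 against Scram+IgG was 0.72 (95% interval -0.56 to 2.00), and with ANT008+aPD-1 it was 0.83 (95% interval -0.50 to 2.16). The interaction of the agents, the difference between their joint effect and the sum of the single ones, was -1.51 on the log2 scale (SE 0.85, unadjusted p 0.101, edgeR FDR 0.993). The effect of anti-PD-1 was thus not shown to differ with ANT008.

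**Figure D3:**
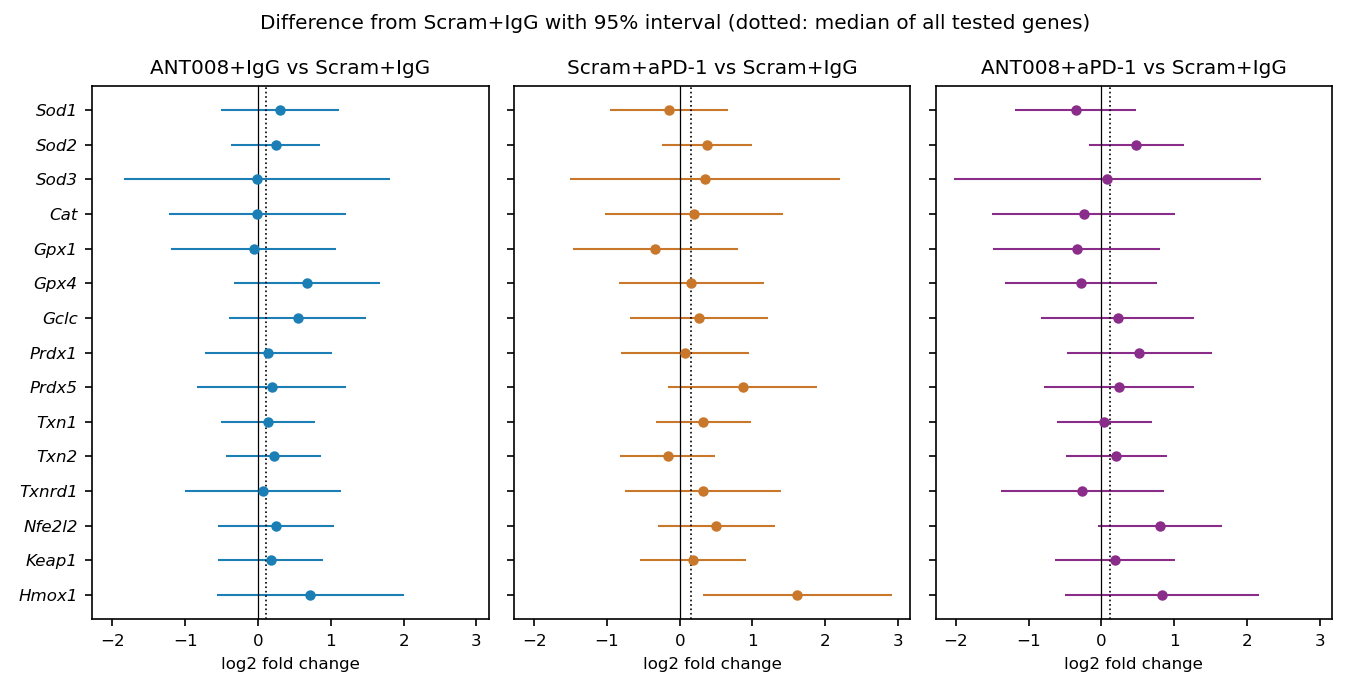
Log2 fold change against Scram+IgG with its 95% interval from the edgeR fit for the 15 tested antioxidant genes, with 1 panel for each treated group (n = 3 mice a group). A dotted line marks the median of all 640 tested genes in each panel. Only the interval of Hmox1 with Scram+aPD-1, 0.32 to 2.92, leaves out 0.

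Across the 12 mice, Hmox1 was higher where the myeloid genes Cd14 and Cd68 were higher. The marker level was the mean of log2(scaled count + 1) of Cd14 and Cd68, the 2 of the list above background in all lanes. Pearson's r was 0.75 (permutation p 0.00536, 0.0643 after Benjamini-Hochberg adjustment over 12 relations, of 6 genes with 2 marker levels), and Spearman's rho was 0.69 (permutation p 0.0177, adjusted 0.106). Without the 2 mice farthest from the median marker level, Scram+IgG mouse 2 and ANT008+IgG mouse 3, r was 0.46 (permutation p 0.179), so the relation rests in part on these mice. With the group means removed r was 0.81. Nfe2l2 had an r of 0.67 with the same markers (permutation p 0.0158, adjusted 0.0948) and a rho of 0.72 (permutation p 0.0101, adjusted 0.106), with an r of 0.69 without the same 2 mice and 0.39 with the group means removed. The adjusted p of the other 10 relations, including all 6 with the T cell genes Cd3d, Cd3g, Cd247, Cd8b1 and Lck, was 0.534 or higher for r. Both axes share the lane scaling. With TMM scaling the r of Nfe2l2 was 0.57, and 0.03 with the group means removed. With the total endogenous count it was 0.58, and -0.008 with the group means removed. Without the 2 mice farthest under each of these scalings it was 0.49 and 0.31. For Hmox1 r was 0.72 with TMM and 0.71 with the total count, and 0.82 and 0.80 with the group means removed.

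Beside the Hmox1 difference, Cd14 was higher in Scram+aPD-1 than in Scram+IgG by 1.10 on the log2 scale (SE 0.50, unadjusted p 0.0491, edgeR FDR 0.988) and Cd68 by 0.79 (unadjusted p 0.239). With the combination against Scram+IgG, Cd14 differed by 2.36 (unadjusted p 0.000755, FDR 0.242), Cd68 by 0.56 (unadjusted p 0.409) and Hmox1 by 0.83. Of the other myeloid genes, Itgam differed by 0.92, Cybb by 0.54 and Csf3r by 0.33 in Scram+aPD-1 against Scram+IgG. Cd163, above background in 7 lanes, went the other way there, at -0.998 (unadjusted p 0.388 by edgeR). With the combination against Scram+IgG, Itgam differed by 1.15, Cybb by 0.52, Csf3r by 0.99 and Cd163 by 2.62. The part of myeloid cells in the Hmox1 values was not tested.

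**Figure D4:**
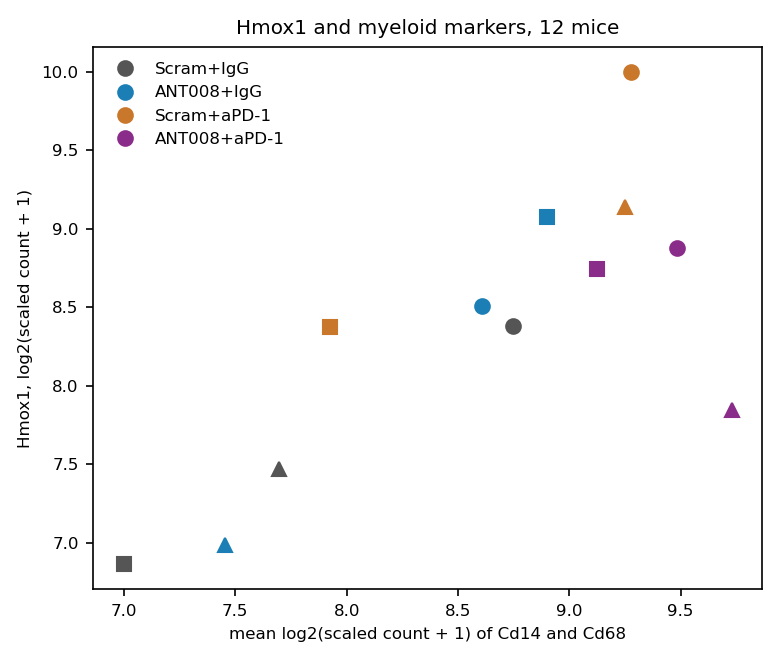
Hmox1 level against the level of the myeloid markers Cd14 and Cd68 in each of the 12 mice, both as log2(scaled count + 1), the markers as a mean. Colors are treatment groups, and circle, square and triangle are mice 1, 2 and 3. Scram+aPD-1 mouse 1 has the highest Hmox1 level, the 2 lowest are Scram+IgG mouse 2 and ANT008+IgG mouse 3, and Pearson's r is 0.75.

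As a group, the members moved little against the rest of the panel. With ANT008+IgG 12 of the 15 had a log2 fold change above 0 against Scram+IgG, with a median of 0.19 beside 0.11 over all tested genes, of which 66.7% were above 0. The share of all tested genes with an unadjusted p under 0.05 was 0.469%, and no member had one. With Scram+aPD-1 12 of the 15 were above 0, with a median of 0.26 beside 0.15, and 62.7% of all tested genes were above 0. With ANT008+aPD-1 10 of the 15 were above 0, with a median of 0.19 beside 0.12, and no member had an unadjusted p under 0.05 where 12.8% of all tested genes did. These numbers of members above 0 move with the scaling, since for ANT008+aPD-1 it was 8 with TMM and 0 with the positive control probes, which do not remove differences in RNA input and put the median of all genes at -4.37. With the negative control mean subtracted it was 5.

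Against the single agents, the ANT008+aPD-1 group had 7 of the 15 members above 0 with ANT008+IgG as the reference (median -0.02, beside -0.04 for all genes) and 5 with Scram+aPD-1 as the reference (median -0.21, beside -0.04). No member had an unadjusted p under 0.05 in either, where 7.81% and 6.25% of all tested genes did, or in the interaction, where 1.41% did. These 3 contrasts share mice with those against Scram+IgG. The median of the interaction was -0.43 over the members and -0.17 over all tested genes.

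The intervals bound what these 3 mice per group can show. The 95% interval lay within 2-fold in either direction for 4 members with ANT008+IgG, 6 with Scram+aPD-1 and 2 with both agents. It lay within 4-fold for 15, 13 and 13. With ANT008+aPD-1 the interval of Txn1 ran from 0.654 to 1.61-fold, and that of Hmox1 from 0.709 to 4.47-fold.

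Of 49 related genes listed from the pathways around these enzymes, the panel held 25 and 24 were tested. None passed an FDR below 0.1 in any contrast. The NADPH suppliers, 7 genes such as Pgd, Tkt and Idh1, had median log2 fold changes of 0.12, 0.20 and -0.17 with ANT008+IgG, with Scram+aPD-1 and with both agents, and 0 had an unadjusted p under 0.05. The 10 genes of cysteine, glutamate and glycine supply, among them the cystine importer Slc7a11 and the serine pathway enzyme Phgdh, had medians of 0.43, -0.10 and -0.13, and again 0 had an unadjusted p under 0.05. The 3 other thiol and NRF2-linked genes, Glrx, Mgst3 and Sqstm1, had medians of 0.22, 0.06 and -0.09.

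Of the 4 tested sources of oxidants, Cybb, Nos2, Nox4 and Xdh, 1 had an unadjusted p under 0.05 against Scram+IgG. This was Nos2, with Scram+aPD-1 and with ANT008+aPD-1, where 1.09% and 12.8% of all tested genes had such a p. Nos2 encodes inducible nitric oxide synthase, an enzyme of activated macrophages that also appears in other cells. Its scaled counts were 62.6, 16.2 and 21.0 in Scram+IgG and 39.3, 25.8 and 39.9 in ANT008+IgG. They were 123, 41.2 and 197 in Scram+aPD-1 and 396, 155 and 132 in ANT008+aPD-1. All 3 ANT008+aPD-1 mice lay above all Scram+IgG mice, and the Scram+aPD-1 group overlapped them. The log2 fold change was 1.79 with Scram+aPD-1 (SE 0.64, unadjusted p 0.0167, edgeR FDR 0.988) and 2.59 with ANT008+aPD-1 (SE 0.70, unadjusted p 0.00287, FDR 0.309). ANT008+aPD-1 mice 1 and 3 held 11 Nos2 counts each, against backgrounds of 9.94 and 12.4.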

How the data were processed

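RNA of T cells from subcutaneous KPC.Luc tumors of 12 mice, 3 in each of 4 groups, was read on the nCounter Mouse Metabolic Pathways panel. From these lanes the authors deposited raw counts per probe and lane, not background-corrected, scaled or pooled, with the probe definitions, whose target sequences were copied. A normalization and a test for these counts were not given in the sources used here. Mice were assigned to groups by the sample titles. Nothing says that the mice of 1 number share a day or cage.

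Background was the mean plus 2 SD of 8 negative control probes. Lanes were scaled to Dnajc14, Oaz1 and Ubb (geometric mean), which were the 3 of 20 housekeeping genes exceeding it everywhere. The quasi-likelihood test of edgeR 4.0.16 in R 4.3.3 (glmQLFTest after glmQLFit) was run, in 1 fit of the 4 groups, on 640 of 748 endogenous genes, those exceeding background in at least 3 lanes, with Benjamini-Hochberg adjustment over all 640 and a threshold of an FDR below 0.1. Single values were compared by exact two-sided permutation, and correlations by 100000 permutations. The test was checked on simulated counts. All members were named, with values in every lane for those above background in all 12 lanes or with an unadjusted p below 0.05, and related genes by that p against Scram+IgG. Lists of marker and related genes came from general knowledge. The members and lists were chosen with earlier results of these data known. Alternatives used other scalings, filters, background subtraction, DESeq2 1.42.0, limma 3.58.1 on log2(scaled count + 1) or with voom and sample weights, the replicate number as a block, the compared groups alone, and each mouse left out. The counts without both lowest-total lanes, the counts without both marked lanes and the spread under other scalings were chosen after seeing the data. Endogenous totals between 5776 and 1486646 counts set the precision, which is poorest in ANT008+aPD-1 mice 1 and 3. One of the marker lists is not reported here.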

Additional observations from a re-analysis of the deposited data

How the results depend on the processing

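The number of antioxidant genes below the FDR threshold was 0 in each of the 6 contrasts, and it stayed 0 in 121 of 122 recalculations. The exception was limma voom with sample weights, which called 1 gene, Hmox1, in Scram+aPD-1 against Scram+IgG (log2 fold change 2.15, FDR 0.0389). Over the alternatives that FDR ran up to 0.9997. For Nfe2l2 in ANT008+aPD-1 against Scram+IgG the unadjusted p was 0.0615 in the main edgeR fit. It was 0.0333 with the total endogenous count, 0.0426 with DESeq2 and 0.0497 with voom weights. By edgeR it rose to 0.0978 with all housekeeping genes and to 0.361 with the negative control mean subtracted. Leaving out both lanes of the lowest total, which left 1 ANT008+aPD-1 mouse assumed to vary like the others, kept the antioxidant count at 0, as did leaving out both marked lanes.

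The count over all tested genes, 0 in each contrast, depended on the test. In ANT008+aPD-1 against Scram+IgG it was 2 with TMM, 1 with the total endogenous count, 30 with DESeq2, 156 with voom weights and 83 without both marked lanes, and it ran from 0 to 84 with each mouse left out, 84 without Scram+IgG mouse 1 and 68 without ANT008+aPD-1 mouse 2. Voom weights called 44 genes in ANT008+IgG and 143 in Scram+aPD-1 against Scram+IgG. In ANT008+aPD-1 against ANT008+IgG DESeq2 called 5 and voom weights 5, and leaving out each mouse gave 0 to 26. Against Scram+aPD-1 DESeq2 called 5 and leaving out each mouse gave 0 to 35, and in the interaction 0 to 1. The highest values of the last 3 ranges came without ANT008+aPD-1 mouse 2. The cause was not tested.

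Of 18 pairs of mice with the same replicate number, 8 had deviations correlated above 0.1, over a range from -0.69 to 0.90. The median was -0.02, against -0.03 for pairs of different numbers. The highest same-number values, 0.90, 0.83 and 0.82, joined mouse 1 of every group but ANT008+aPD-1, whose mouse 1 had -0.13 to -0.04 with them. A pair of different numbers reached 0.87. Whether some of the mice shared a day or cage was not tested. With the replicate block the count of calls remained 0 in all 6 contrasts, for antioxidant and for all tested genes. Of 1776 recalculated values of single genes relative to the median of all tested genes, 236 changed sign, and in all of these but 1 the unadjusted p was above 0.05 both before and after. The exception was the interaction of Sod3, which turned to 2.10 with voom weights (unadjusted p 0.0469). With positive control scaling, the correlations with the T cell markers turned to 0.90 for Gpx1, 0.91 for Prdx5, 0.94 for Txn1 and 0.90 for Txnrd1, as both measures then follow the depth of the lane. With a depth of 5776 counts in 1 lane, members near background could not be told apart from it there.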
